A study of Drosophila melanogaster with 12 samples.

Results

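The translation factors of Drosophila melanogaster were followed through transcript levels in sorted wing disc and S2 cells. Members were genes whose only symbol in the array annotation begins with eIF, eEF, EF1, EF2, Ef1 or eRF, the names of initiation, elongation and release factors. The rule found 47 of the 11982 genes with a probe set of their own. Each gene was read through its brightest probe set, and 39 of the 47 had a log2 intensity of at least 5 on 3 or more of the 12 arrays and were tested. Of these, 38 had a mean of at least 5 in all 4 groups, so the filter itself forced a difference on 1 member, eIF4E6. Another 7 factors that current annotation names in the same way (eIF1A, eIF2alpha, eIF2gamma, eIF4H1, eEF1alpha1, eEF1beta and eEF2) lacked one here and were not analysed here.

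Wing discs came from OreR larvae of instar 3 at the wandering stage, raised at 25 °C, and no transgene was named in the labels. S2 is a cultured Drosophila line with features of blood cells, used here at fewer than 30 passages. Both kinds of cell were sorted on DNA content, those at 2C being taken as G1 and those at 4C as G2 (a gate that also holds mitosis), with no other agent named, and 100 ng of RNA per sample was amplified and labelled for Affymetrix arrays. This gave 4 groups, G1 and G2 from wing disc and from S2, with 3 arrays in each. Whether replicate arrays stem from independent dissections and cultures is not stated in the labels, and p-values therefore reflect only how far these samples spread, which may be technical.

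Initiation begins when eIF2 carries the initiator tRNA to the small ribosomal subunit, where eIF1, eIF3 and eIF5 help it find the start codon. eIF2B recharges eIF2 with GTP, and phosphorylation of eIF2 under stress blocks that step. The eIF4 group binds the cap of the mRNA and unwinds it, the eEF1 and eEF2 factors carry out elongation, and eRF1 with eRF3 ends it. Growing cells such as those of the larval disc make large amounts of these proteins.

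The sort and the cell types were checked on marker genes. Of 6 genes of G1 and S phase, 6 were lower in disc G2 and 4 in S2 G2, against 5.31% and 3.52% of all probe sets. Of 4 mitotic genes 1 was higher in disc G2, where the other 3 did not pass, and 4 were higher in S2 G2. Among all probe sets 5.20% were higher in disc G2 and 6.13% in S2 G2. These lists were chosen with earlier results of these data known, so they are no independent check of the sort. All 19 wing disc markers had a mean of at least 5 in both disc groups, against 7 of 19 in each S2 group. Among those below 5 in S2 were nub, vg and en. Between cell types 15 of the 19 were higher in the disc and 3 were lower, down to -2.74 in log2. Markers below 5 in S2 may have been kept by the filter through the disc alone and then had to be higher there. The count of 15 is therefore no separate check of the cell type. Among all probe sets 41.0% were higher and 42.7% lower. Of 19 blood cell markers, 14 to 15 reached 5 in each of the 4 groups. Of the 18 tested, 14 were lower and 4 higher in the disc than in S2, with a median of -1.56, beside the same shares of all probe sets. The defining haemocyte factor srp was below 5 in both disc groups, as were eater and lz, with NimC1 in disc G1 and PPO1 and gcm in disc G2. In both S2 groups NimC1, PPO1, gcm and lz were below 5, with Ppn in S2 G1. The filter may have kept srp and eater through S2 alone, and they then had to be lower in the disc. The median log2 intensity of an array lay between 4.18 and 4.37, and between 40.4% and 42.0% of its probe sets reached 5. S2 G1 array 6 stood apart in this family: it was the array farthest from the others of its group for 22 of 39 members, at a median distance of 0.16, against 0.04 to 0.11 for the other 11 arrays. Without it 3 further members passed a test, and their values are given below: eIF3m in the disc phase comparison, eIF2Bbeta in the S2 one and eRF3 in disc against S2.

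Differences are given as log2 intensity with the standard error (SE) of a linear model fitted to all 12 arrays and 8580 probe sets. A member was called when the Benjamini-Hochberg adjusted p over all 8580 was below 0.05. Tests were two-sided.

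The comparison of wing disc with S2 asked how far the translation machinery differs between a growing epithelium and a cultured line. Most of the family was higher in the disc, by modest amounts: 25 of 39 members were higher, 6 were lower and 8 did not pass. Among all probe sets, 41.0% were higher, 42.7% lower and 83.7% called in either direction, so the number of members called is near the background and the members' split lies to the disc side. The median difference was 0.43 over the members and -0.01 over all probe sets, and the median size without sign was 0.50 against 0.70. Differences of at least 1 (a doubling) were found in 6 of 39 members, or 15.4%, against 37.4% of all probe sets. The 6 lower members and these 6 both include eIF4E6, whose difference the filter forced. Subtracting array medians moved the median of all probe sets by -0.11 and gave 23 members higher and 10 lower. Within G1 alone 25 were higher and 5 lower, and within G2 alone 24 and 6. The plot of disc against S2 shows every tested member by role.

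**Figure D1:**
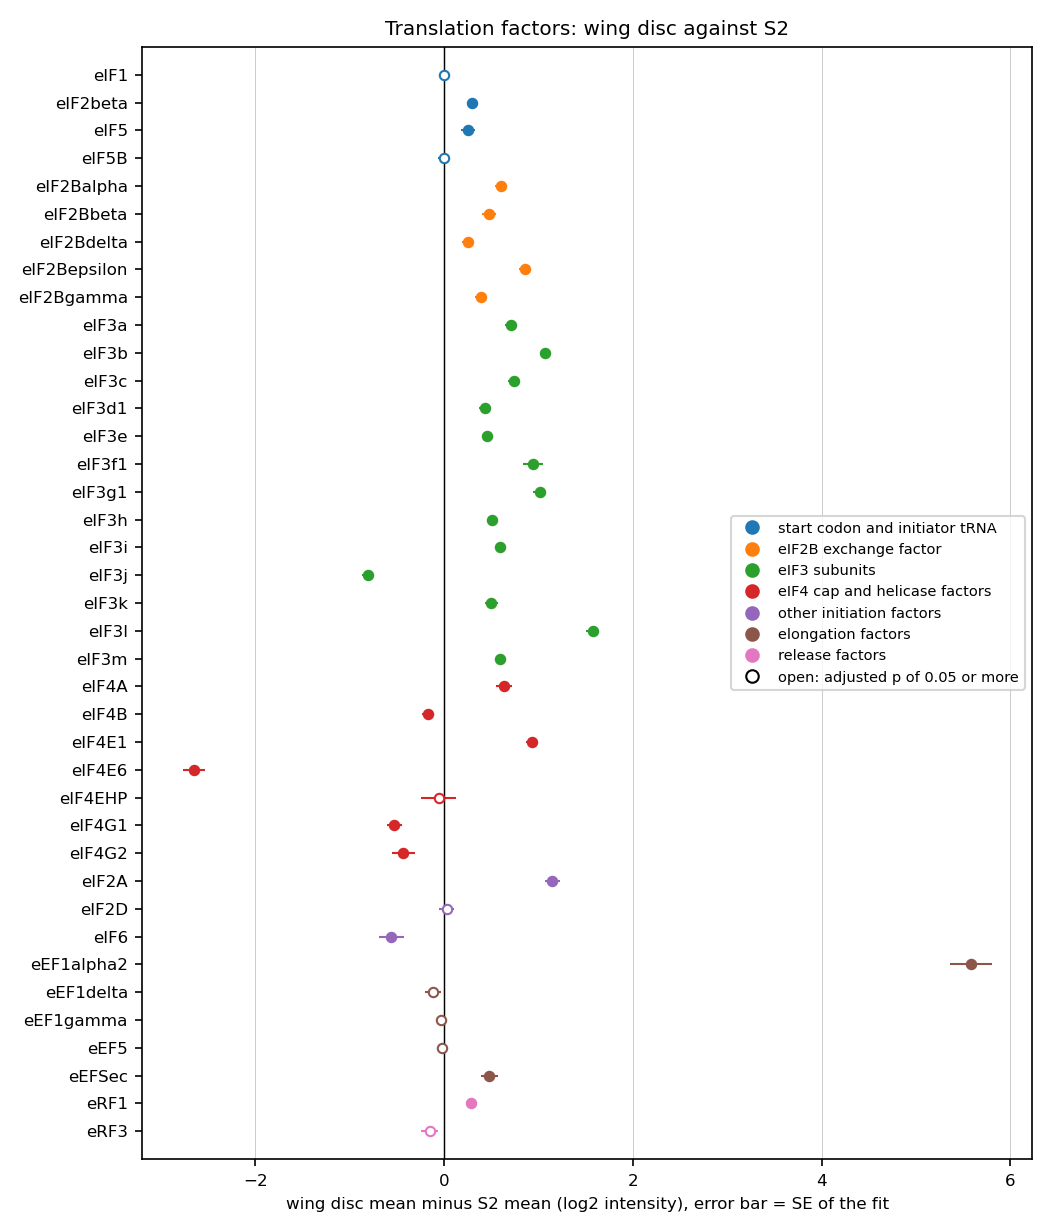
Difference between the wing disc mean and the S2 mean of each tested translation factor, in log2 intensity on the horizontal axis, with the SE of the fit as error bar (6 arrays a cell type). Filled points passed the test and colours mark the role. The eIF2B points lie right of 0, as do all eIF3 points but eIF3j, and eEF1alpha2 lies far to the right at 5.58. The point of eIF4E6 rests on disc signals near background.

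eIF3, the largest initiation factor, holds the small ribosomal subunit and recruits the mRNA. All 13 of its tested subunits differed between disc and S2, 12 higher and 1 lower in the disc, with a median of 0.60 (0.48 after subtraction of array medians and 0.60 after cyclic loess, with the same count of 12 and 1). Among all probe sets 83.7% were called, 41.0% higher and 42.7% lower. eIF3l (CG5642) ran from 12.53 to 12.83 with a median of 12.75 on the 6 disc arrays, and from 10.98 to 11.31 with a median of 11.14 on the 6 S2 arrays. The ranges lay far apart, and the difference was 1.57 ± 0.07 or 2.98-fold (adjusted p = 2.6e-10). eIF3b (CG4878), a core subunit, ran from 12.52 to 12.63 (median 12.58) in the disc and from 11.39 to 11.59 (median 11.51) in S2, a difference of 1.07 ± 0.05 (adjusted p = 1.14e-09). Every disc array of both genes lay above every S2 array.

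eIF3g1 (CG8636), an RNA-binding subunit, ran from 12.58 to 12.88 (median 12.73) in the disc and from 11.58 to 11.96 (median 11.69) in S2, which is 1.01 ± 0.07. eIF3f1 (CG9769) ran from 12.04 to 12.40 (median 12.27) in the disc and from 11.14 to 11.84 (median 11.23) in S2, which is 0.94 ± 0.10. Its highest S2 value came from S2 G1 array 6, and the ranges still did not meet. The other 8 subunits were higher by smaller amounts. Among the core subunits eIF3c differed by 0.74 ± 0.06, eIF3a by 0.71 ± 0.06 and eIF3i by 0.60 ± 0.05. Among the outer subunits eIF3m differed by 0.59 ± 0.05, eIF3h by 0.51 ± 0.05, eIF3k by 0.50 ± 0.07, eIF3e by 0.46 ± 0.05 and eIF3d1 by 0.43 ± 0.06.

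eIF3j (CG12131) went the other way. This subunit is loosely attached to the complex in yeast and mammals. It ran from 10.84 to 11.03 with a median of 10.89 in the disc and from 11.63 to 11.84 with a median of 11.72 in S2, a difference of -0.81 ± 0.06 (adjusted p = 5.81e-08). The 13 subunits thus spanned from -0.81 to 1.57, and in all 13 the 6 disc arrays and the 6 S2 arrays did not overlap. Over the whole family 23 of 39 members were higher in the disc without overlap and 4 were lower, against 31.2% and 33.9% of all probe sets. The 4 include eIF4E6, whose difference the filter forced.

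All 5 subunits of eIF2B, the exchange factor that recharges eIF2, were higher in the disc, against 41.0% of all probe sets. eIF2Bepsilon (CG3806), the catalytic subunit, ran from 9.82 to 10.03 (median 9.94) in the disc and from 8.89 to 9.25 (median 9.10) in S2, a difference of 0.86 ± 0.06 (adjusted p = 3.2e-08). eIF2Balpha (0.60 ± 0.06), eIF2Bbeta (0.48 ± 0.08), eIF2Bgamma (0.39 ± 0.06) and eIF2Bdelta (0.25 ± 0.06) followed. No disc array of any of the 5 fell within its S2 range, where 31.2% of all probe sets were higher in the disc without overlap. With array medians subtracted eIF2Bdelta no longer passed (0.14, adjusted p = 0.0687).

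Of the 4 tested factors that place the initiator tRNA at the start codon, 2 were higher in the disc and 2 did not pass. This is near the 41.0% of all probe sets that were higher. eIF2beta (CG4153), a subunit of eIF2, differed by 0.30 ± 0.06 (adjusted p = 0.000305) and eIF5 (CG9177), which triggers GTP hydrolysis by eIF2, by 0.25 ± 0.07 (adjusted p = 0.00499). eIF5 lost its call within G2 alone (0.23, adjusted p = 0.0517) and with array medians subtracted (0.14, adjusted p = 0.0994). eIF1 ran from 13.42 to 13.48 in the disc and from 13.40 to 13.49 in S2, with a 95% interval of the difference from -0.10 to 0.10. eIF5B, which joins the ribosomal subunits, had an interval from -0.13 to 0.12.

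The cap-binding and helicase group was split. eIF4E1 (CG4035), the main cap-binding protein, ran from 12.16 to 12.28 (median 12.20) in the disc and from 11.14 to 11.39 (median 11.30) in S2, a difference of 0.93 ± 0.06 (adjusted p = 1.82e-08). eIF4A, the helicase, was higher by 0.64 ± 0.08. Both scaffolds went the other way. eIF4G1 (CG10811) ran from 10.49 to 10.89 (median 10.78) in the disc and from 10.92 to 11.58 (median 11.35) in S2, which is -0.52 ± 0.08 (adjusted p = 7.61e-05) with no overlap.

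eIF4G2 (CG10192), the scaffold paralogue needed in the male germ line, ran from 8.05 to 8.42 (median 8.27) in the disc and from 8.28 to 9.06 (median 8.71) in S2, which is -0.43 ± 0.12 with ranges that overlapped. eIF4E6 (CG1442), a paralogue of the cap-binding protein, ran from 3.93 to 4.57 (median 4.28) in the disc and from 6.59 to 7.13 (median 6.93) in S2. All 6 disc arrays were below 5, near background, so this member was kept by the filter through S2 alone and had to differ. Its measured difference of -2.65 may understate the size, and its call is no result.

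Probe sets of the same gene disagreed for both members that have several. eIF4B (CG10837), a helper of eIF4A, has 4 probe sets. Its brightest ran from 10.68 to 10.84 in the disc and from 10.73 to 11.14 in S2, a difference of -0.17 ± 0.07 (adjusted p = 0.0309). The next was 0.28 ± 0.06 (adjusted p = 0.000446), the third was 0.19 ± 0.20 (adjusted p = 0.373), and the last was below 5 on all arrays. The direction of eIF4B therefore depends on the probe set, and its call was lost with replicate number as a random block (adjusted p = 0.0793). For eIF4EHP (CG33100), a cap-binding repressor that does not bind eIF4G, the brighter probe set gave -0.06 ± 0.19 and the dimmer -0.84 ± 0.11 (adjusted p = 1.02e-05).

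Among the other initiation factors, eIF2A (CG7414), which can deliver initiator tRNA outside the usual route, ran from 12.68 to 12.89 (median 12.81) in the disc and from 11.47 to 11.93 (median 11.61) in S2, a difference of 1.15 ± 0.08 (adjusted p = 3.05e-08). eIF6 (CG17611), which keeps the large ribosomal subunit from joining early, ran from 10.52 to 10.77 (median 10.61) in the disc and from 10.77 to 11.61 (median 11.13) in S2, which is -0.56 ± 0.13 (adjusted p = 0.00196). The top S2 value of eIF6 was again S2 G1 array 6, and without that array the difference was -0.44. eIF2D did not pass (0.03 ± 0.08).

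Elongation factors held the largest difference in the family. eEF1alpha2 (CG1873), which carries aminoacyl-tRNA to the ribosome, ran from 10.09 to 12.50 with a median of 11.66 in the disc and from 5.62 to 6.32 with a median of 5.93 in S2. The difference was 5.58 ± 0.22 or 47.9-fold (adjusted p = 1.58e-10), and its S2 level lay just above the filter, which limits the size. Its probe set is of a kind that can match several transcripts (9 of 47 members have such a probe set), and the paralogue eEF1alpha1 was not analysed here. In mouse and rat, the second eEF1A gene is the form used in muscle and neurons.

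The remaining elongation factors differed far less. eEFSec (CG9841), the factor for selenocysteine, was higher in the disc by 0.48 ± 0.09. eEF1gamma and eEF1delta, parts of the exchange complex of eEF1A, did not pass. eEF1delta ran from 12.51 to 12.63 (median 12.57) in the disc and from 12.57 to 13.09 (median 12.61) in S2, which is -0.12 ± 0.09. eEF5 (formerly eIF5A) ran from 14.24 to 14.32 in the disc and from 14.24 to 14.34 in S2. These levels are close to the brightest probe sets on the arrays (14.80 to 14.95), where a difference in eEF5 would be compressed. Of the release factors, eRF1 (CG5605), which reads the stop codon, was higher in the disc by 0.29 ± 0.05. Its GTPase partner eRF3 ran from 11.61 to 11.94 (median 11.71) in the disc and from 11.58 to 12.11 (median 11.89) in S2 and did not pass (-0.15 ± 0.09, adjusted p = 0.119). eRF3 did pass as lower in the disc without S2 G1 array 6 (-0.22, adjusted p = 0.011), with array medians subtracted (-0.26, adjusted p = 0.0156) and with array weights (-0.19, adjusted p = 0.0119).

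Within the disc, G2 was set against G1 to ask whether the family moves with cell cycle fraction. Of 39 members 1 rose, 1 fell and 37 did not pass, which is 5.13% called. Among all probe sets 10.5% were called (5.20% higher and 5.31% lower). Whether the family differs from that share was not tested, and with 39 members the count is small. At an unadjusted p below 0.05 there were 8 members, against 24.8% of all probe sets. For 32 of the 39 the 95% interval of the change lay within 0.50 on either side of 0, which is 1.41-fold. The plot of G2 against G1 gives both cell types side by side.

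**Figure D2:**
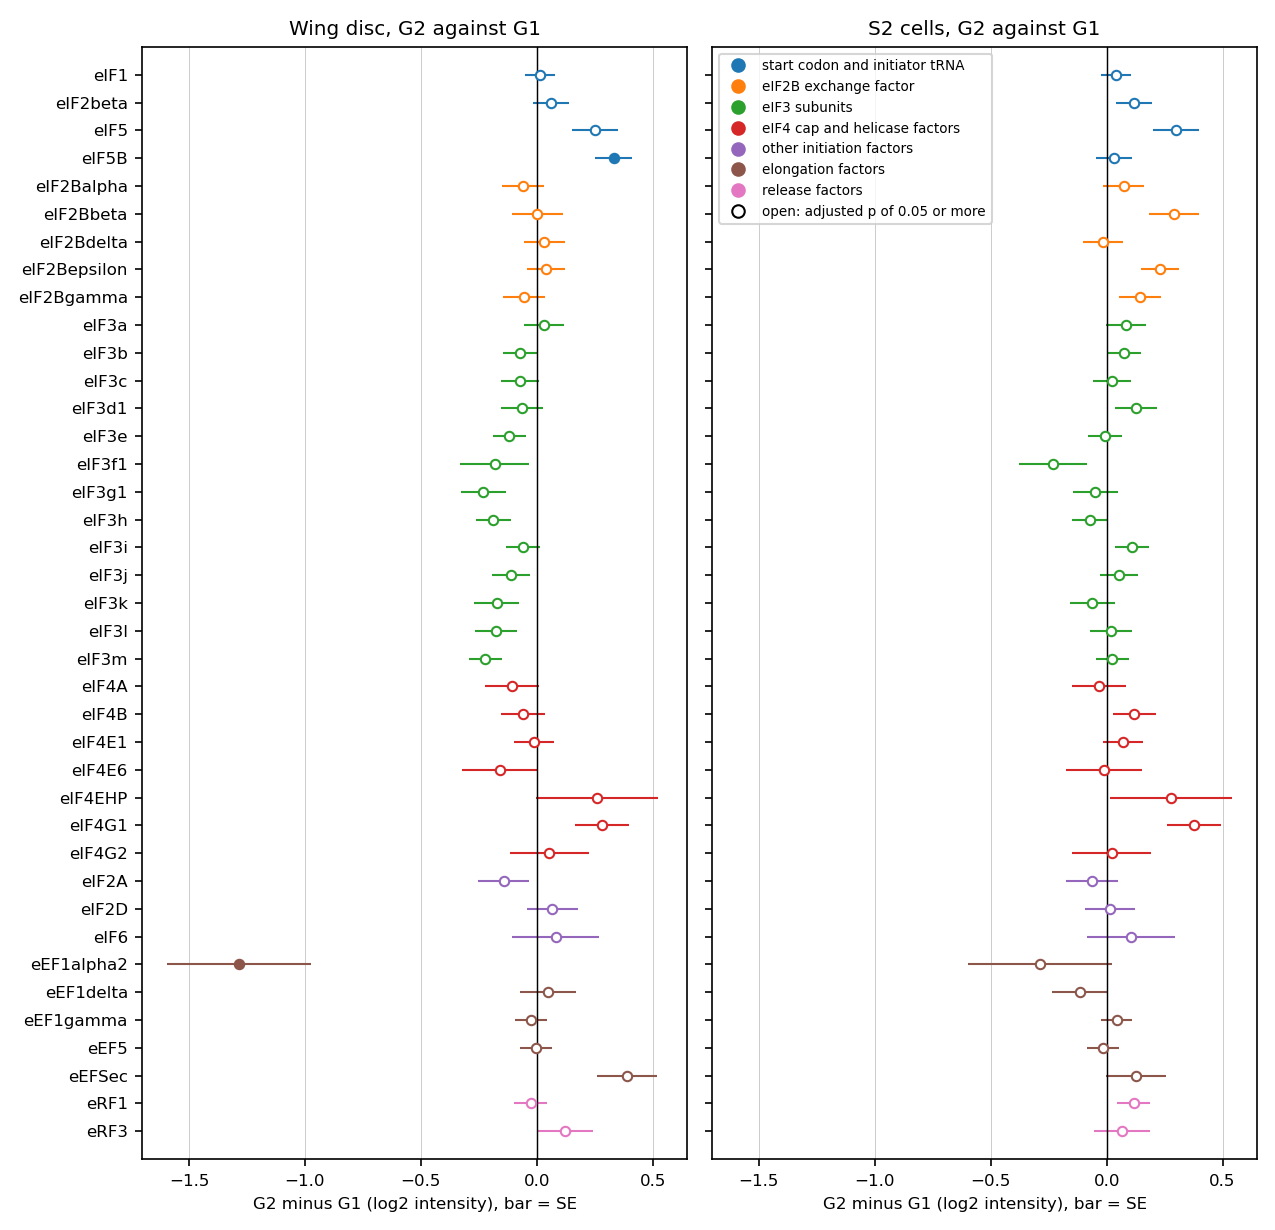
Change from G1 to G2 of each tested translation factor in the wing disc (left) and in S2 (right), in log2 intensity, with the SE of the fit as error bar (3 arrays a group). Filled points passed the test: eEF1alpha2 (-1.28) and eIF5B (0.33) in the disc, and 0 members in S2.

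eEF1alpha2 fell in disc G2. It read 12.27, 11.81 and 12.50 on disc G1 arrays 2, 3 and 4, and 11.14, 10.09 and 11.50 on the disc G2 arrays with the same numbers. Every G2 array lay below every G1 array, and the change was -1.28 ± 0.31, a 2.44-fold fall (adjusted p = 0.0211, or 0.00326 with replicate number as a block). The call was lost without disc G1 array 2 (-1.25, adjusted p = 0.0652), without disc G1 array 4 (-1.13, adjusted p = 0.0847) and when only the disc arrays were fitted (adjusted p = 0.0733). In S2 it read 6.26, 6.32 and 5.76 in G1 and 5.62, 5.89 and 5.97 in G2, with a change of -0.29 ± 0.31.

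Markers of the adult muscle precursors, cells that lie on the disc epithelium, moved with eEF1alpha2. All 6 tested markers of 7 with a probe set fell in disc G2, by a median of 1.39, among them twi (-1.32 ± 0.17), htl (-1.48 ± 0.20) and Him (-1.23 ± 0.32). Their summed log2 level over 7 genes was 60.1 to 61.9 on the disc G1 arrays and 49.7 to 54.1 on the G2 arrays, which did not overlap, as for eEF1alpha2. Within a phase the order of arrays agreed only in part: both the sum and eEF1alpha2 were lowest on array 3 in G2, but in G1 the sum was lowest on array 4, where eEF1alpha2 was highest, and in G2 the sum was highest on array 2 and eEF1alpha2 on array 4. The seventh marker, sns, was below 5 in all groups, and all but zfh1 were below 5 in S2. Other marker lists moved in the disc too. Of 18 tested blood cell markers 4 fell and 0 rose in disc G2, of 8 tracheal markers 3 rose and 0 fell, and of 19 wing disc markers 6 rose and 0 fell (median 0.30), against 5.20% of all probe sets higher and 5.31% lower. The part of any of these cells in the fall of eEF1alpha2 was not tested, and in sorted populations fewer cells of a type and less RNA per cell cannot be told apart.

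**Figure D3:**
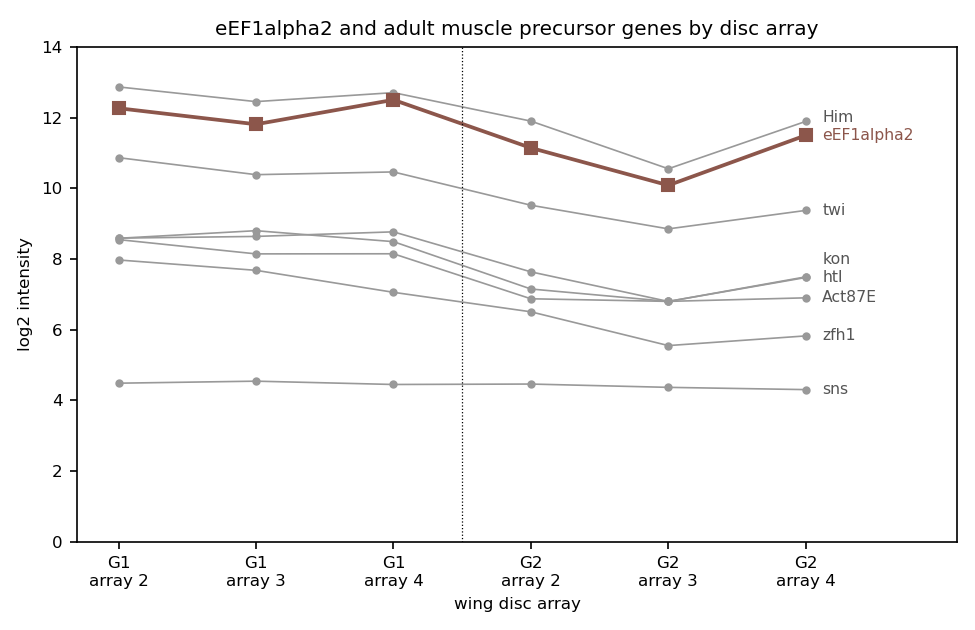
Log2 intensity of eEF1alpha2 (squares) and of 7 adult muscle precursor genes (grey points) on each of the 6 wing disc arrays, G1 left of the dotted line and G2 right of it. Lines only join the points of a gene. eEF1alpha2 and 6 of the 7 genes are lower on all G2 arrays, with the lowest eEF1alpha2 value (10.09) on G2 array 3.

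eIF5B (CG10840), a GTPase that joins the ribosomal subunits at the end of initiation, rose in disc G2. It read 9.80, 9.93 and 9.91 in disc G1 and 10.28, 10.18 and 10.18 in disc G2. The groups did not overlap, and the change was 0.33 ± 0.08 or 1.26-fold (adjusted p = 0.0195). The call was lost without disc G1 array 2 (0.29, adjusted p = 0.0811), without disc G2 array 2 (0.30, adjusted p = 0.0747) and with no filter (adjusted p = 0.0516). In S2 the G1 arrays of eIF5B ran from 9.96 to 10.15 and enclosed the G2 arrays at 10.07, 10.10 and 10.04, a change of 0.03 ± 0.08.

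eEFSec read 6.86, 7.10 and 6.98 in disc G1 and 7.17, 7.60 and 7.33 in disc G2, so that each G2 array was above all G1 arrays. Its change of 0.39 ± 0.13 did not pass (adjusted p = 0.0831), but passed once replicate number entered as a block (adjusted p = 0.0129). With that block the disc count became 2 higher and 1 lower, against 11.5% and 7.45% of all probe sets (19.0% in either direction).

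No eIF3 subunit passed the test in the disc, though some passed under other settings, and the changes were small and mostly of one sign. Of 13 subunits, 12 had a lower mean in G2, with a median of -0.12 against 0.05 for all probe sets, and the count of 12 was also found after subtraction of array medians and after cyclic loess. For 8 of the 13 every G2 array lay below every G1 array. Over the family this held for 12 of 39 members, and the reverse for 4, against 12.9% and 21.2% of all probe sets. eIF3m read 12.57, 12.52 and 12.49 in disc G1 and 12.24, 12.36 and 12.33 in disc G2, which is -0.22 ± 0.07 (adjusted p = 0.0727). eIF3m passed without S2 G1 array 6 (adjusted p = 0.0422), as did eIF3m and eIF3h with a variance trend (adjusted p = 0.0114 and 0.0462), and eIF3m, eIF3h and eIF3g1 with array weights (adjusted p = 0.016, 0.0354 and 0.0337). eIF3g1 read 12.84, 12.88 and 12.82 in disc G1 and 12.58, 12.64 and 12.63 in disc G2, which is -0.23 ± 0.10 (adjusted p = 0.166). eIF3a was the subunit with the other sign, at 0.03 ± 0.09. The mean over the 13 subunits was 12.31, 12.33 and 12.29 on disc G1 arrays 2, 3 and 4, and 12.15, 12.23 and 12.17 on the G2 arrays.

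The eIF2B subunits ran from -0.06 (eIF2Balpha) to 0.04 (eIF2Bepsilon) in disc G2, and 0 of 5 passed. In the eIF4 group 0 of 7 passed, with values from -0.16 (eIF4E6) to 0.28 (eIF4G1). With array weights 1 of the 7 was called, as higher. eIF4G1 read 10.69, 10.60 and 10.49 in disc G1 and 10.89, 10.88 and 10.86 in disc G2 without overlap, at adjusted p = 0.159. The release factors were at -0.03 (eRF1) and 0.12 (eRF3), and the other initiation factors ran from -0.14 (eIF2A) to 0.08 (eIF6).

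**Figure D4:**
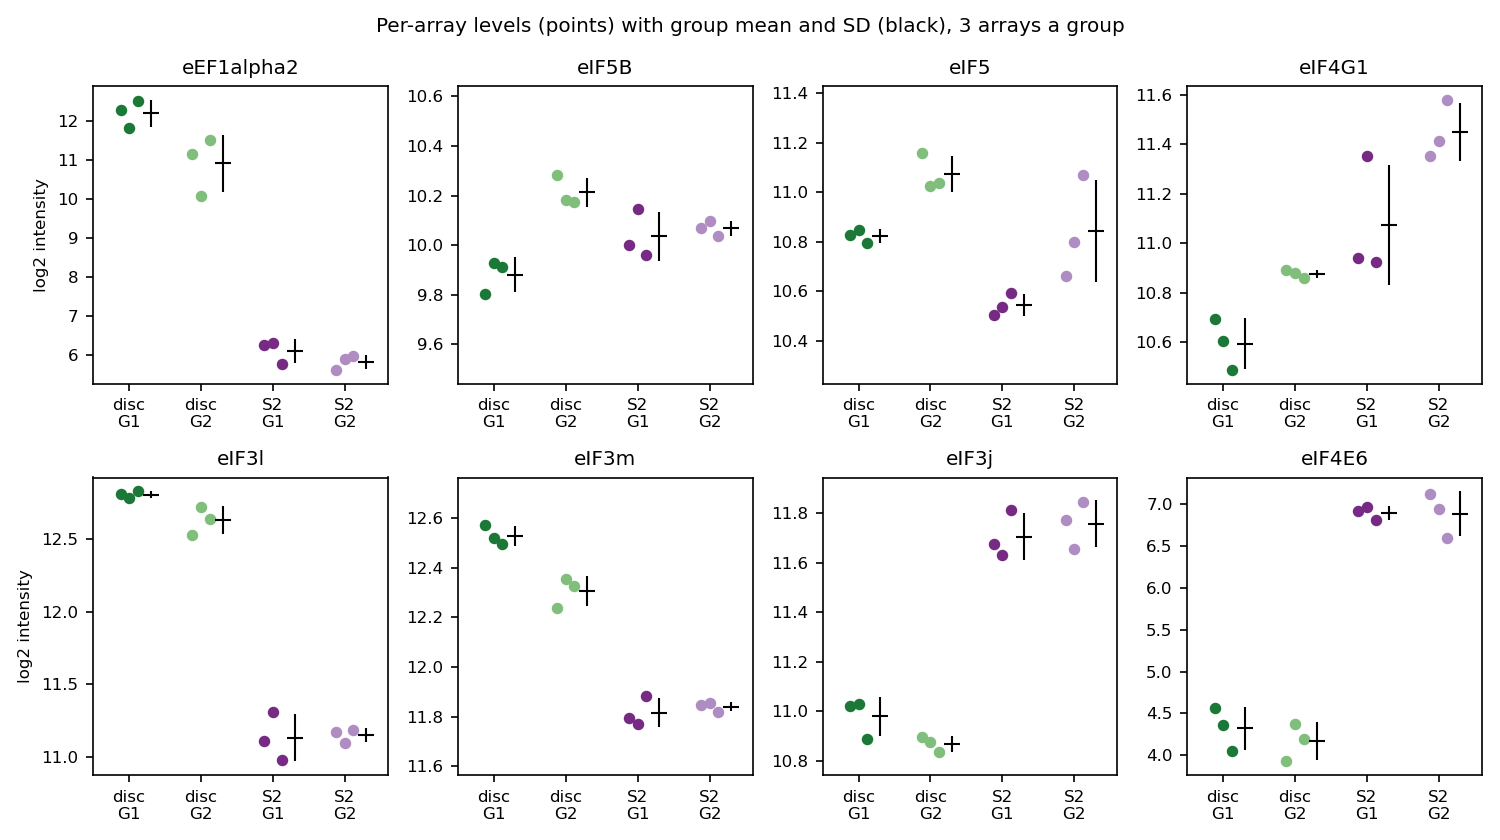
Log2 intensity of 8 translation factors on each of the 12 arrays (points, coloured by group), with the group mean and SD in black (n = 3). The vertical scale differs between panels. eEF1alpha2 sits at 10.09 or above on all disc arrays and at 6.32 or below on all S2 arrays, while eIF3j and eIF4E6 are higher in S2.

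In S2 cells the same comparison gave 0 of 39 calls by limma, against 9.65% of all probe sets (6.13% higher and 3.52% lower), with 4 members at an unadjusted p below 0.05 against 24.0%. The median change was 0.04 over the members and 0.02 over all probe sets, and 32 of 39 intervals again lay within 0.50 of 0. The 4 were eIF4G1 (0.38 ± 0.12, adjusted p = 0.066), eIF5 (0.30 ± 0.10, adjusted p = 0.0851), eIF2Bbeta (0.29 ± 0.11, adjusted p = 0.123) and eIF2Bepsilon (0.23 ± 0.08, adjusted p = 0.111), all with higher means in G2. The G2 arrays lay above all G1 arrays for 6 members and below them for 1, against 16.1% and 10.7% of all probe sets.

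eIF5 read 10.50, 10.54 and 10.59 on S2 G1 arrays 4, 5 and 6, and 10.66, 10.80 and 11.07 in S2 G2. The groups did not overlap, and eIF5 passed once replicate number entered the fit as a block (adjusted p = 0.0421), where 18.4% of all probe sets were called (10.9% higher and 7.44% lower). In the disc eIF5 read 10.83, 10.85 and 10.79 in G1 and 11.16, 11.03 and 11.04 in G2, a change of 0.25 ± 0.10 that did not pass (adjusted p = 0.143, or 0.072 with the block). eIF4G1 read 10.94, 11.35 and 10.92 in S2 G1 and 11.35, 11.41 and 11.58 in S2 G2, so that S2 G1 array 5 reached the G2 range, and without that array eIF4G1 passed (adjusted p = 0.00886). Without S2 G2 array 4 eIF5 passed (adjusted p = 0.0432), and without S2 G1 array 6 eIF2Bbeta passed (adjusted p = 0.0108).

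The S2 changes of other members were small. eIF2B ran from -0.02 (eIF2Bdelta) to 0.29 (eIF2Bbeta), the eIF4 group from -0.03 (eIF4A) to 0.38 (eIF4G1) and the start codon group from 0.03 (eIF5B) to 0.30 (eIF5). Elongation factors ran from -0.29 (eEF1alpha2) to 0.13 (eEFSec), the release factors were at 0.07 (eRF3) and 0.12 (eRF1), and the other initiation factors ran from -0.06 (eIF2A) to 0.10 (eIF6). The eIF3 changes ran from -0.23 (eIF3f1) to 0.13 (eIF3d1) and were mixed in sign: 8 of 13 subunits had a higher mean in G2 and 5 a lower one (6 and 7 after cyclic loess), with a median of 0.02. eIF3 means over 13 subunits were 11.54, 11.61 and 11.65 on the S2 G1 arrays and 11.57, 11.61 and 11.64 on the S2 G2 arrays. The difference between the disc change and the S2 change was tested for each member, and limma called 0 of 39, against 5.10% of all probe sets (2.21% higher and 2.89% lower). With the block it also called 0, against 11.1%. At an unadjusted p below 0.05 there were 3, against 18.0%. They were eIF5B (0.30 ± 0.11, adjusted p = 0.167), eIF3m (-0.25 ± 0.10, adjusted p = 0.218) and eEF1alpha2 (-0.997 ± 0.44, adjusted p = 0.255, or 0.0513 with the block). A difference between cell types in the phase change of a member was therefore not shown.

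A set of 8 members did not reach the filter and was not tested. They are eIF3d2, eIF3f2 and eIF3g2, paralogues of eIF3 subunits whose other copies (eIF3d1, eIF3f1 and eIF3g1) were tested, the cap-binding paralogues eIF4E3, eIF4E4, eIF4E5 and eIF4E7, and eIF4H2. eIF4E3 is known in Drosophila for its role in the testis. Over these 8 genes and all 12 arrays the values ran from 2.77 to 4.77, near background. The highest value was that of eIF3g2 on disc G1 array 4, and eIF3f2 reached 4.63 on S2 G1 array 6.

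Other genes of translation were counted from lists. Of 29 regulators, 12 were higher and 9 lower in the disc than in S2, which is 72.4% called against 83.7% of all probe sets. S6k, the kinase of ribosomal protein S6, was lower by 2.75 ± 0.15 on the log2 scale, and Pdcd4, an inhibitor of eIF4A in mammals, was higher by 2.13 ± 0.08. Fmr1, which represses translation of its target mRNAs, differed by -1.05 ± 0.10. Both eIF2 kinases were higher in the disc, PEK by 0.70 ± 0.11 and Gcn2 by 0.53 ± 0.08. In G2 against G1 only Gcn2 passed among these 29 regulators, in the disc (0.40 ± 0.11, adjusted p = 0.0359), and 0 passed in S2. The 3.45% higher in disc G2 is near the 5.20% of all probe sets, and in S2 9.65% of all probe sets were called.

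Of 16 cytosolic aminoacyl-tRNA synthetases, which load tRNAs with amino acids, 7 were higher and 6 lower in the disc than in S2, with a median of 0.07, which is 81.2% called against the same 83.7%. TyrRS fell in disc G2 (-0.25 ± 0.07, adjusted p = 0.0331), and 0 passed in S2. The 6.25% of these synthetases lower in disc G2 is near the 5.31% of all probe sets, and in S2 9.65% of all probe sets were called. The 14 mitochondrial synthetases went one way between cell types: 11 were lower in the disc, 0 higher, with a median of -0.72, where 42.7% of all probe sets were lower and 41.0% higher. In S2 G2, 4 of these 14 rose, such as TyrRS-m (0.64 ± 0.12) and TrpRS-m (0.61 ± 0.10), against 6.13% of all probe sets. Of 9 mitochondrial translation factors, 5 were lower and 0 higher in the disc than in S2, or 55.6% called against 83.7%. mRRF1, a ribosome recycling factor of mitochondria, fell in G2 of both the disc (-1.56 ± 0.10, adjusted p = 2.01e-06) and S2 (-1.02 ± 0.10, adjusted p = 0.000327). mRRF2 was higher in disc G2 than in disc G1 (0.58 ± 0.11), but its mean was below 5, near background, in both disc groups. In both S2 groups all 9 factors had a mean of at least 5, so the filter may have kept mRRF2 through S2. A lower disc level of mRRF2 than in S2 would then be forced, which limits the count between cell types too.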

How the data were processed

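Per the submitters' processing notes, the authors made probe set values with RMA in R 2.15.2. The deposited values are intensity values on a linear scale, with 1 column per array. Which background correction and normalization RMA ran with is not given in the sources used here. Since the planned tests needed log2 values, log2 was taken first. Of 18952 probe sets, 183 controls were left out, and 8580 with log2 of at least 5 on 3 or more of 12 arrays were tested. Annotation gave 1 gene for 13647 probe sets, several for 402 and none for 4720. All 47 members were matched to current gene identifiers with the same symbol. No coordinates were used.

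A mean per group was fitted by lmFit and moderated by eBayes (limma 3.58.1 under R 4.3.3). Residual degrees of freedom were 8, to which eBayes added 3.52, and the fit was tested on simulated data. Tables and plots used Python 3.11.15, pandas 2.3.3, numpy 2.4.6 and matplotlib 3.10.9. The number of arrays limits the precision. Members, lists and tests were chosen with earlier results of these data known. Members past the test in G2 against G1 were named with values, as were the 8 highest and 8 lowest in disc against S2, and, where a role group had none past the test, its largest and smallest change. Other members and list genes named as examples were chosen after their values were seen.

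Deviations of G1 and G2 arrays from their group means gave correlations between 0.31 and 0.52 for each of 6 same-numbered pairs, and between -0.50 and 0.01 for the 12 others. Same-numbered arrays thus moved together, though deviations from a group mean push the other correlations down when these are positive. The main fit did not use the numbers as pairs, and the fits with replicate number as a block did.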

Additional observations from a re-analysis of the deposited data

How the results depend on the processing

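Counts of members called changed with the processing where changes were small. The wing disc G2 against G1 comparison had 2 calls. No filter gave 1, a fit of the disc arrays alone 1 and a variance trend 4 (with eIF3h and eIF3m as lower). Array weights gave 8, of which 4 were lower (with eIF3g1, eIF3h and eIF3m) and 4 higher. The 4 higher were 2 of the start codon group, 1 of the eIF4 group and 1 elongation factor. Leaving out 1 array gave 0 to 3, and replicate number as a block gave 3. In S2, which had 0, no filter gave 1 (eIF3f2, below 5 on all arrays), a variance trend 2, array weights 4 and the replicate block 1, and leaving out 1 array gave 0 to 1. The difference of the changes, which had 0, gave 1 with array weights (eIF2Bbeta), 0 with the block and 0 to 0 with 1 array left out. Wing disc against S2, which had 31, gave 30 to 33 over all alternatives, 30 with the block and 30 to 32 with 1 array left out. Of its 31 calls 28 were kept under every alternative run in which they were tested, and eIF2Bdelta, eIF5 and eIF4B were not. Only eIF4B turned, to 0.038 with the mean of its probe sets. The cause of these shifts was not tested. With 3 arrays a group, changes in members at or near the ends of the intensity range are limited by background or by the array maxima.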
